A study of Mus musculus with 3 samples.

Results

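The genes of the secreted and membrane-bound enzymes that cut the extracellular matrix, and of the inhibitors that hold them back, were followed through limb development by the accessibility of their chromatin. The set comprised 35 genes chosen by name: 13 matrix metalloproteinase genes (Mmp), 18 genes of the Adamts family and the 4 genes of the tissue inhibitors of metalloproteinases (Timp). They were read against 15875 autosomal protein-coding genes with a peak in shared regions of every library. Counts were taken in called peaks touching the gene or its 2000 bp of upstream sequence, in genome build mm10 (GRCm38). Of the 35 members, 32 had such a peak in regions shared by all libraries, and the other 3, Mmp3, Mmp13 and Mmp19, are described at the end.

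There were 3 libraries of single-nucleus ATAC-seq, an assay in which a transposase cuts open chromatin of single nuclei, 1 per embryonic (E) stage, namely E12.5, then E14.5, then E16.5, with no replicate. All came from C57BL/6J embryos with the genotype Hic1CreERT2/CreERT2;Rosa26LSLtdTomato/tdTomato, so both copies of Hic1 carried the Cre insertion in every group and there was no group without it. Dams had received 7.5 mg tamoxifen in 300 uL of sunflower oil at embryonic day 10, and tdTomato-positive mesenchymal progenitors (MPs) of the forelimb, meaning Hic1-expressing cells at labelling and their progeny, were sorted without cells bearing CD45, CD117, CD31, CD11b, F4/80 or Ter119. Male and female embryos were pooled. At E16.5 the tissue was a segment around the elbow, and at E12.5 the digestion used Dispase where later stages used Collagenase A, Pronase and DNase, so stage, library, segment and digestion cannot be told apart.

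Matrix metalloproteinases are zinc enzymes that cleave collagens, gelatins and other matrix proteins. Some are secreted, such as the gelatinases Mmp2 and Mmp9, and others are held in the membrane, such as Mmp14, which activates Mmp2. The ADAMTS enzymes are secreted and bind matrix through thrombospondin repeats. They include the aggrecanases, which cut the cartilage proteoglycan aggrecan, and the procollagen N-proteinases, which trim new fibrillar collagen. TIMPs block the active site of these enzymes, and Timp3, which is itself bound to matrix, inhibits several ADAMTS enzymes as well.

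Regions inside the genes were also read one by one, and 7 that differed between stages or between kinds of nuclei are shown first. Each is the central 300 bases of the merged region, read from GRCm38.p6 on the plus strand. Capitals mark matches to TGANTCA (a loose AP-1 pattern with any middle base), AACCACA (RUNX), GGAATG (TEAD) and ACAATGG (SOX) on either strand. The first 3 became more accessible with stage, the next 3 less, and the Adamts3 element stood out in nuclei gated on cartilage loci. Those of Adamts9, Adamts18 and Timp2 were picked by rule and the other 4 after their values had been seen. Only the Timp2 sequence (TGANTCA) and the Adamts18 sequence (ACAATGG) hold a match, which describes the letters and not binding.
Adamts9 element, chr6:92793911-92794210, plus strand: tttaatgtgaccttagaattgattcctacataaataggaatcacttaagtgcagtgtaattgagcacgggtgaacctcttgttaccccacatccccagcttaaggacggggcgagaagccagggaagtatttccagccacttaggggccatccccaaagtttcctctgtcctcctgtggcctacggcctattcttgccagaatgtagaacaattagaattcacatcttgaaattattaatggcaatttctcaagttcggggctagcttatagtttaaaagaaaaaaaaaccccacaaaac
Adamts17 element, chr7:66933689-66933988, plus strand: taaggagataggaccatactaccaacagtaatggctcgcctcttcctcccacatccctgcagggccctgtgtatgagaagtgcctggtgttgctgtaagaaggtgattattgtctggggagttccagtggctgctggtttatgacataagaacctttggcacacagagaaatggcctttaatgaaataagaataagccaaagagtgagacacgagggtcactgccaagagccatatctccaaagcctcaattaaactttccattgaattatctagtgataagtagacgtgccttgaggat
Timp2 element, chr11:118327536-118327835, plus strand: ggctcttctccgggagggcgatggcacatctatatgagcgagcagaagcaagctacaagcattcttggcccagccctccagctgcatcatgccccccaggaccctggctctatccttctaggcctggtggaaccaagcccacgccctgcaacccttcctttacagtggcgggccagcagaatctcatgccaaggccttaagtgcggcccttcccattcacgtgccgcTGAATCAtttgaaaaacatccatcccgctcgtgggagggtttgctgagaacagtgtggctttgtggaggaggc
Adamts18 element, chr8:113814268-113814567, plus strand: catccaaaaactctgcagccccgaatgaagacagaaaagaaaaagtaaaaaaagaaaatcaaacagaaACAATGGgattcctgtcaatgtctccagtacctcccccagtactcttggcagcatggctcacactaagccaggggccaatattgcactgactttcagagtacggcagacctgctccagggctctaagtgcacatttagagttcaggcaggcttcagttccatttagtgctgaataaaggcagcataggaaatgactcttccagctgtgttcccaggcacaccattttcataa
Adamts12 element, chr15:11098480-11098779, plus strand: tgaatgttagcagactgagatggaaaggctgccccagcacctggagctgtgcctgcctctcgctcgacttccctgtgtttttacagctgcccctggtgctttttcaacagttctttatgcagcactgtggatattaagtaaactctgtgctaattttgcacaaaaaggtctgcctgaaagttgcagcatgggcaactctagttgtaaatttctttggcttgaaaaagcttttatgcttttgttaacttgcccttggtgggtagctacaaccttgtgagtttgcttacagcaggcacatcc
Adamts16 element, chr13:70827736-70828035, plus strand: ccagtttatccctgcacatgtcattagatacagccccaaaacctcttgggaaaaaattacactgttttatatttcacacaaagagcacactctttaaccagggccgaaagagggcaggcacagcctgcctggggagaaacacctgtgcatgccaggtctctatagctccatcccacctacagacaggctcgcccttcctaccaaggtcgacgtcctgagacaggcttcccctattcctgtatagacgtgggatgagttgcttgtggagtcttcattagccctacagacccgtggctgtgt
Adamts3 element, chr5:89844362-89844661, plus strand: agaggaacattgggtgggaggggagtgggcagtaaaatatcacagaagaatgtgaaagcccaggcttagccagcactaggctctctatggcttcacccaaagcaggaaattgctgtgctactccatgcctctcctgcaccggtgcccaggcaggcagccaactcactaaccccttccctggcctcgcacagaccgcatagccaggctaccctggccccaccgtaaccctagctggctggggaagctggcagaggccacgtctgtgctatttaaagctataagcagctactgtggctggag

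From the earliest stage to the latest, the libraries held 8294, 20023 and 14048 nuclei, with medians of 6003.5, 8575 and 26694 cut sites in peaks per nucleus. Values are given as CPM, the counts per 1000000 counts in autosomal regions shared by all 3 peak lists. All intervals are 95% intervals for counting error only, since no stage had a second library. At most 2.85% of the barcodes of a library recurred in another. Of the shared autosomal counts, 49.8%, 56.7% and 49.7% lay in promoter peaks in stage order, so promoter and intron peaks were also read apart. The promoter of Hic1 had a fragment in 8.49% to 10.2% of nuclei at a common depth, while Ptprc, Itgam and Adgre1, genes of the blood cells removed by the sort, had no called promoter peak. That of Kit, which encodes the excluded CD117, had a fragment in 2.29% to 4.66%. Because nuclei were summed per library, fewer nuclei of a kind and less accessibility per nucleus cannot be told apart in these sums.

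Summed over the gene, most members differed little between stages. From E12.5 to E16.5, 7 of the 32 members were at least 1.5-fold higher, where 7.34% of all genes were, and 2 were at least 1.5-fold lower, where 8.52% were. From E12.5 to E14.5 the counts were 1 higher, against 7.41% of all genes, and 0 lower, against 7.43%. From E14.5 to E16.5 they were 4 higher, against 7.33%, and 1 lower, against 5.20%. None of the 9 members past 1.5-fold from E12.5 to E16.5 stayed past it in the same direction per kb of called peak width, and 3 of the 9 were lost when every peak of the merged regions was counted. The median log2 ratio from E12.5 to E14.5 was 0.11 for 10 Mmp genes, 0.12 for 18 Adamts genes and 0.10 for 4 Timp genes. All genes had a median of 0.15 at that step. From E14.5 to E16.5 the family medians were 0.11, 0.10 and 0.31, beside -0.17 for all genes. From E12.5 to E16.5 they were -0.07, 0.23 and 0.18, beside 0.01 for all genes. In promoter peaks alone the medians were -0.11, 0.00 and -0.05. In intron peaks they were -0.21 for 6 Mmp genes, 0.42 for 15 Adamts genes and 1.12 for 2 Timp genes, beside 0.01 for 6061 genes with such peaks. Each peak was classed in its own library, so the intron peaks of a gene need not cover the same sequence at each stage.

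**Figure D1:**
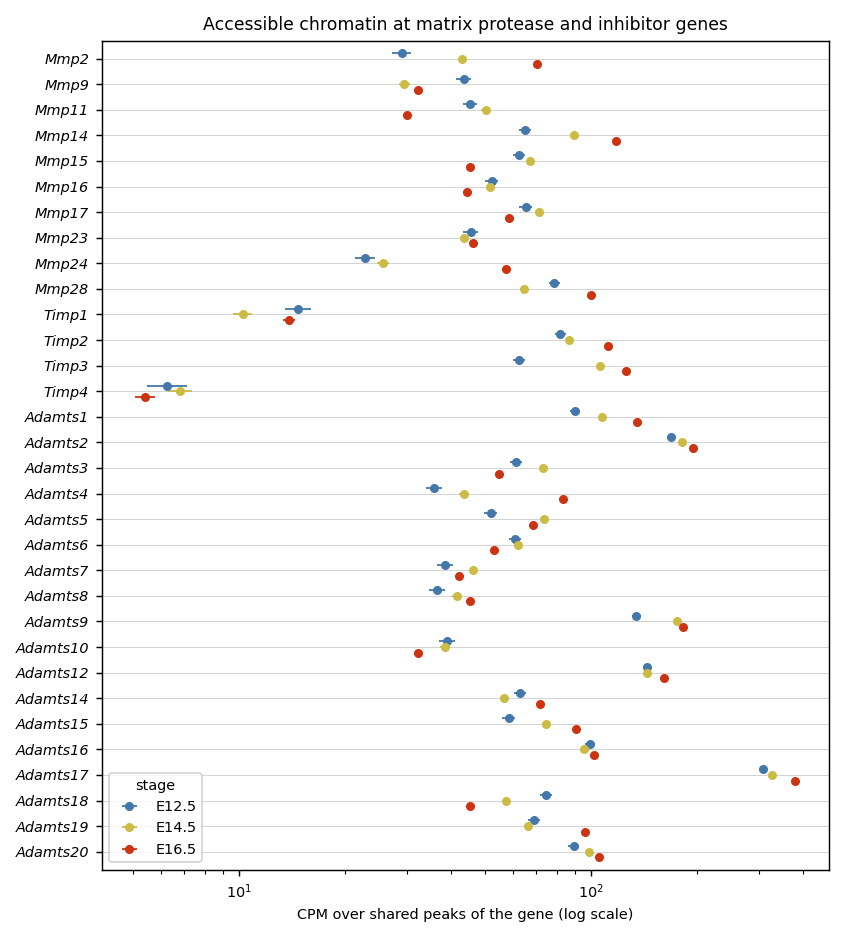
CPM over the shared peaks of each gene (log axis) for the 32 members with such peaks, with 1 point per library and bars for exact Poisson intervals of counting error. Adamts17 has the largest sum at every stage and Timp4 the smallest, and sums are not scaled to called width.

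Among the gelatinases, Mmp2 (chr8:92827291-92853420) had 29.0 CPM at E12.5, with an exact Poisson interval of 27.3 to 30.8. The E14.5 library had 43.1 CPM (41.8 to 44.4) and the E16.5 library 70.3 (69.0 to 71.5). Each stage was above the one before and the log2 ratio of last over first was 1.28 (1.19 to 1.37). The called peaks differed as well: the shared peaks of Mmp2 widened from 3196 bp to 8379 bp between E12.5 and E16.5, and 18.7% of its E16.5 counts lay in peaks that also reached Lpcat2. Counted over every peak of the merged regions it reached (whole merged regions), the ratio was 0.78, and at the promoter region alone 0.54 (0.44 to 0.64), from 24.8 to 36.1 CPM. The other gelatinase, Mmp9, went the other way, with 43.5, 29.5 and 32.3 CPM in stage order. Its log2 ratio was -0.43 (-0.51 to -0.35), and its promoter was open in under 1% of nuclei at the common depth at every stage.

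Mmp14, the membrane-type enzyme that activates Mmp2, had 64.9, 89.3 and 118 CPM in stage order, a log2 ratio of 0.86 (0.80 to 0.93). Its ratio over whole merged regions was the same, but 47.7% of its E16.5 counts lay in a peak that also reached Mrpl52, and in promoter peaks the ratio was 0.50. Mmp24, another membrane-type enzyme, had 22.8, 25.7 and 57.6 CPM and the highest gene ratio of the set, 1.33 (1.23 to 1.44). This value did not hold at the gene itself. At E16.5, 66.7% of its counts lay in peaks of Eif6 or BC029722, the ratio over whole merged regions was 0.15, and the matched promoter region was lower at E16.5, at -0.49 (-0.62 to -0.36). Mmp15 had 62.6, 67.1 and 45.3 CPM, lower at E16.5 than at both earlier stages, with -0.47 (-0.53 to -0.40). Mmp16 and Mmp17 were lower by less, at -0.23 and -0.16.

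Mmp11, a secreted enzyme first known from tumour stroma, was the Mmp gene with the largest decline, from 45.4 and 50.2 CPM to 30.1 at E16.5, a log2 ratio of -0.59 (-0.67 to -0.51). Every E12.5 peak in its reach also reached Chchd10, so the pair cannot be told apart. Mmp28 had 78.8, 64.6 and 99.9 CPM, with E14.5 the lowest and between 19.5% and 32.8% of the counts in peaks that also reached 1700020L24Rik. Its intron region chr11:83457379-83458930 was also lowest at E14.5, at 27.1, 9.19 and 20.2 CPM, but ended below its start, a ratio of -0.42 (-0.52 to -0.32). In peaks of matched position the ratio of the gene was -0.33, against 0.34 in its shared peaks. Mmp23, whose single peak was shared with Mib2, stayed between 43.7 and 46.4 CPM.

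The aggrecanases Adamts4 and Adamts5 both had higher sums at E16.5 than at E12.5. Adamts4 had 35.8, 43.6 and 83.5 CPM, a ratio of 1.22 (1.14 to 1.30). Over whole merged regions the ratio was 0.07, and at its promoter region 0.44 (0.35 to 0.53). Adamts5 had 51.9, 73.7 and 68.4 CPM, a ratio of 0.40, and no other gene in its peaks. Adamts15, which also cuts aggrecan and versican, had 58.4, 74.7 and 90.5 CPM, a ratio of 0.63 (0.57 to 0.70) over shared peaks and over whole merged regions, and -0.24 per kb of called width, a reading that by itself moved the median of all genes by -0.19. Adamts1 had 90.1, 108 and 136 CPM, a ratio of 0.59 (0.54 to 0.64). Over whole merged regions it had 0.44, and per kb of called width -1.07, since its shared peaks widened from 4271 to 13536 bp.

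Of the procollagen N-proteinases, Adamts2 had one of the largest sums among the members, with 169, 182 and 196 CPM. Per kb of called width it stood at percentile 37.4, 35.4 and 38.4 of all genes in stage order. Adamts3 had 61.3, 73.1 and 54.7 CPM and Adamts14 63.0, 56.7 and 71.7 CPM, so E14.5 was the highest stage for one and the lowest for the other. Adamts18 had the largest decline of all members, with 74.5 CPM (71.8 to 77.4) in the first library, 57.3 in the next and 45.4 (44.4 to 46.5) in the last. Its ratio was -0.71 (-0.78 to -0.65), the same over whole merged regions, -0.35 per kb of called width and -0.99 in peaks of matched position. Adamts10, which binds fibrillin microfibrils, had 39.0, 38.5 and 32.3 CPM, a ratio of -0.27 (-0.36 to -0.19). Adamts6 had 60.9, 62.1 and 53.2 CPM, a ratio of -0.20 (-0.26 to -0.13), so both were lowest at E16.5.

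The remaining Adamts genes lay between 0.04 (Adamts16) and 0.48 (Adamts19) in their ratio of E16.5 over E12.5. Adamts9 and Adamts20, which are closely related proteoglycan-cutting enzymes, had 0.44 and 0.24, Adamts12 had 0.16 and Adamts17 had 0.31. Adamts7 and Adamts8 had 0.14 and 0.32. Adamts17 had the largest sum of the members, at 308, 327 and 381 CPM, above the sum of 99.2% of all genes at E12.5. It spread these counts over 32 shared peaks at E12.5, and per kb of called width it stood only at percentile 24.2.

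Among the inhibitors, Timp3 (chr10:86300372-86349506) had 62.5 CPM (60.0 to 65.1) in the first library, 106 (104 to 109) in the next and 126 (124 to 127) in the last. The log2 ratio was 1.01 (0.95 to 1.07), with 0.77 reached by E14.5. In peaks of matched position these ratios were 0.28 and 0.47, so neither reached 1.5-fold. In shared peaks it was the only member at least 1.5-fold higher at the step to E14.5, while with all peaks of each library it had 0.58 there, just under that mark, and in matched peaks Timp2 had 0.81. From E12.5 to E16.5 the promoter peaks had 0.09 and the intron peaks 1.54. The intron peaks had 15.1, 54.9 and 43.8 CPM in stage order, beside promoter peaks at 37.8, 50.8 and 40.1. Class was set for each called peak in its own library, so a peak that widened onto an exon left the intron sum. Whether the lower intron sum at E16.5 than at E14.5 came from this was not tested. Timp3 lies within Syn3, which means that all of its counts were also in reach of that gene. Timp2, which both inhibits and helps to activate Mmp2, had 81.8, 86.5 and 112 CPM, a ratio of 0.45 (0.40 to 0.51), with 0.00 at promoter peaks and 0.71 in intron peaks. Its ratio depended on the reading, with 1.47 in peaks of matched position, past 1.5-fold, and -0.20 per kb of called width. Timp1, on the X chromosome within Syn1, had 14.7, 10.3 and 13.9 CPM and was lowest at E14.5. Timp4, within Syn2, had 6.23, 6.81 and 5.41 CPM, and its first and last stages did not differ beyond counting error, at -0.20 (-0.42 to 0.01).

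**Figure D2:**
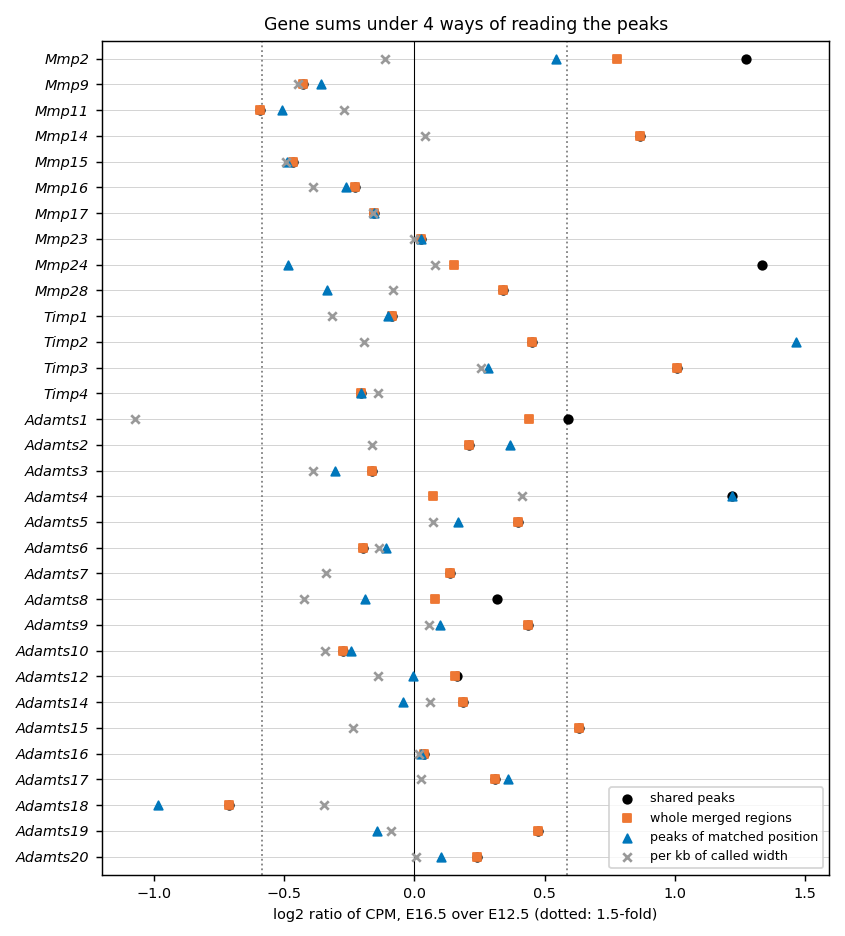
Log2 ratio of CPM, E16.5 over E12.5, for each member in shared peaks, over whole merged regions, in peaks of matched position and per kb of called width. Adamts18 lies left of 0 in all 4 readings, while Mmp24 goes from 1.33 in shared peaks to -0.49 in matched peaks.

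Other genes of matrix proteolysis were read the same way. Of 48 such genes, which include further Mmp genes, Adam genes, plasminogen activators, procollagen processing enzymes and cathepsins, 41 had a value. From E12.5 to E16.5, 4 of them were at least 1.5-fold higher and 3 lower, where 7.34% and 8.52% of all genes were, with a median log2 ratio of 0.02. Plaur, the urokinase receptor, had the highest ratio at 1.12, and Spock1, a proteoglycan with protease-inhibiting domains, the lowest at -1.01. The 7 without a value were Mmp1a, Mmp8, Mmp10, Mmp12, Mmp20, Mmp21 and Mmp27.

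Regions were then read one by one. Merging the peak lists gave 503 regions in reach of the members, of which 201 were shared by all libraries, 61 were called at E12.5 only, 147 at E16.5 only and 0 at E14.5 only. A region missing from a list was not called there and is not shown to be closed. The lists differed in size, with 190443, 102459 and 213613 peaks in stage order. The same counts were not made over all merged regions, so these are not read as a trait of the members. To compare like with like, 89 regions were kept that had 1 peak of each library, overlapping each other by at least 50%, and a mean of at least 2 CPM. They comprised 68 at Adamts genes, 15 at Mmp genes and 6 at Timp genes. From E12.5 to E16.5, 22 of the 89 were at least 1.5-fold higher, where 15.9% of 42120 autosomal regions were, and 15 were lower, where 22.9% were. From E12.5 to E14.5, 18 were higher, against 15.7%, and 11 lower, against 19.3%. From E14.5 to E16.5, 12 were higher, against 12.2%, and 15 lower, against 16.5%.

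Promoters differed less. Of the 23 promoter regions, 3 of which are promoters of other genes or transcripts, 0 were at least 1.5-fold higher at E16.5 than at E12.5 where 4.70% of all promoter regions were, and 1, that of Adamts18, was lower, where 10.6% were, with 16.4, 13.7 and 8.17 CPM in stage order. All other differences of that size lay in the 66 regions away from promoters, 22 higher and 14 lower, against 20.7% and 28.2% of all such regions. In promoter sums per gene, which also take in peaks without a match in position, 3 of 32 members were at least 1.5-fold higher, where 6.24% of all genes with promoter peaks were, and 3 lower, where 8.23% were. Adamts12 had 0.87 and Adamts16 -2.27.

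**Figure D3:**
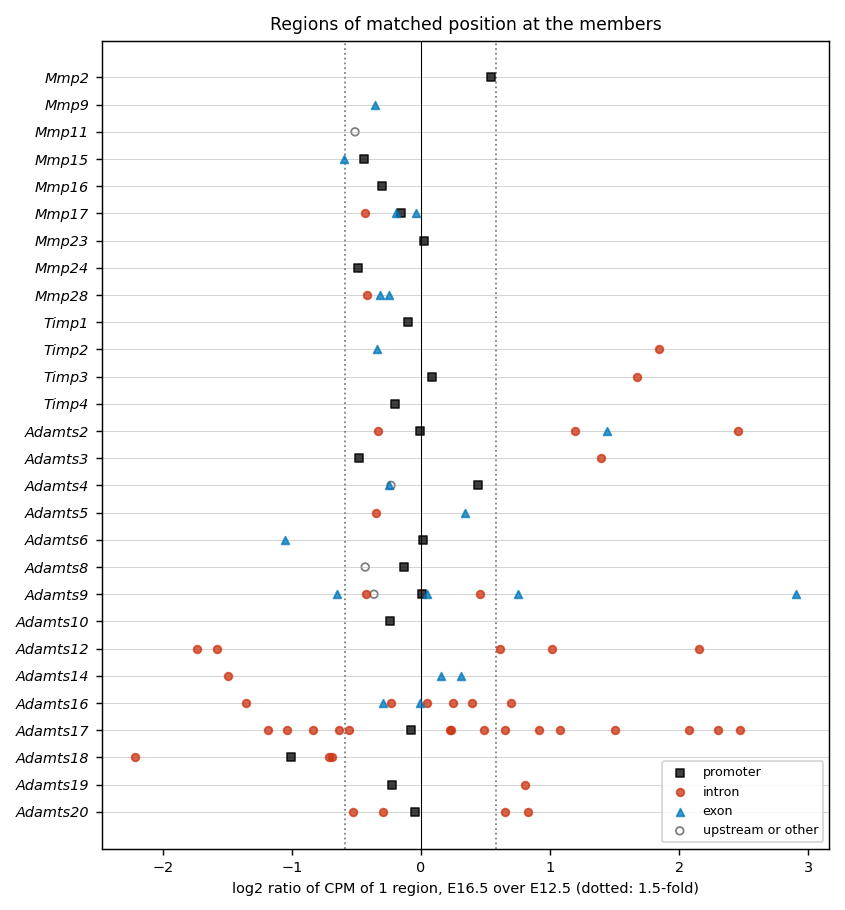
Log2 ratio of CPM, E16.5 over E12.5, for each of the 89 regions of matched position, placed by gene and marked by class. No promoter passes a 1.5-fold increase, while Adamts12 and Adamts17 hold introns at both ends of the axis.

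Among these 89 regions the largest increase was at Adamts9. The region chr6:92793545-92794577 lies 149432 bp inside the gene and touches an annotated exon. It had 1.47 CPM (1.12 to 1.93) in the first library, 9.52 in the next and 11.1 (10.6 to 11.6) in the last. The ratio was 2.91 (2.51 to 3.31), nearly all of it by E14.5. Over the same stages the Adamts9 promoter had 87.1, 109 and 87.6 CPM, and the ratio of last over first stage was 0.01 (-0.05 to 0.06). The called peak at the element widened from 518 to 1033 bp between E12.5 and E16.5, and the part of width in the ratio was not tested. Adamts2 had an intron region of the same kind, chr11:50645792-50646919, at 2.78, 8.73 and 15.3 CPM, a ratio of 2.45 (2.17 to 2.75), against -0.01 at its promoter.

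Timp2 and Timp3 each had 1 matched intron region, and these were higher at each later stage. The sum of all shared intron peaks of Timp3 was not, but its peaks could change class between libraries. In Timp2 the region chr11:118326563-118328809 had 9.12 CPM (8.19 to 10.2), 20.6 CPM and 32.7 CPM (31.8 to 33.6) in stage order, a ratio of 1.84 (1.68 to 2.003). In Timp3 the region chr10:86310287-86311196 had 2.96, 5.52 and 9.45 CPM, a ratio of 1.68 (1.39 to 1.96). An exon region of Timp2, chr11:118316884-118317644, had the largest Timp decrease, with 3.78, 2.03 and 2.99 CPM and a ratio of -0.34 (-0.61 to -0.06). The largest increase among Mmp regions was only 0.54, at the Mmp2 promoter, and the largest decline was -0.59, at an exon region of Mmp15 with 20.8, 21.6 and 13.8 CPM.

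The largest decline among the 89 regions was in Adamts18. The intron region chr8:113814023-113814812 had 6.96 CPM (6.15 to 7.88), 2.28 CPM and 1.498 CPM (1.32 to 1.70) in stage order, a ratio of -2.22 (-2.48 to -1.96). All 4 matched regions of this gene were lower at E16.5, the others by log2 ratios from -1.01 to -0.69. Introns of Adamts14 (chr10:61234233-61234835, from 5.19 to 1.84 CPM) and Adamts16 (chr13:70827310-70828461, from 6.73 to 2.64 CPM) were also lower, at -1.497 and -1.35.

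In Adamts17 and Adamts12, regions of the same gene went in opposite directions and the gene sum hid it. Adamts9 (2.91 and -0.65) and Adamts16 (0.70 and -1.35) also held regions past 1.5-fold in both directions. Of all regions, 15.9% were higher and 22.9% lower, and how often other genes mix directions was not counted. Adamts17 had 16 of the matched regions. Its intron region chr7:66932674-66935004 had 5.01, 19.1 and 27.9 CPM, a ratio of 2.47 (2.26 to 2.69). Further introns had 2.301 (chr7:67034050-67035083), 2.08 (chr7:66870935-66872737) and 1.502 (chr7:66866756-66869093). Against these, chr7:66974530-66975520 had 11.1, 4.21 and 4.88 CPM, a ratio of -1.18 (-1.36 to -1.01), and chr7:67092088-67092832 had -1.04. The promoter had 60.6, 63.1 and 57.6 CPM. In Adamts12 the intron region chr15:11196718-11197635 had 1.82, 3.44 and 8.13 CPM, a ratio of 2.16 (1.79 to 2.52). Another intron, chr15:11097905-11099354, had 12.3, 8.90 and 3.70 CPM, a ratio of -1.74 (-1.91 to -1.56), and chr15:11084045-11085469 had -1.58, although chr15:11077946-11079037 next to it had 1.02.

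**Figure D4:**
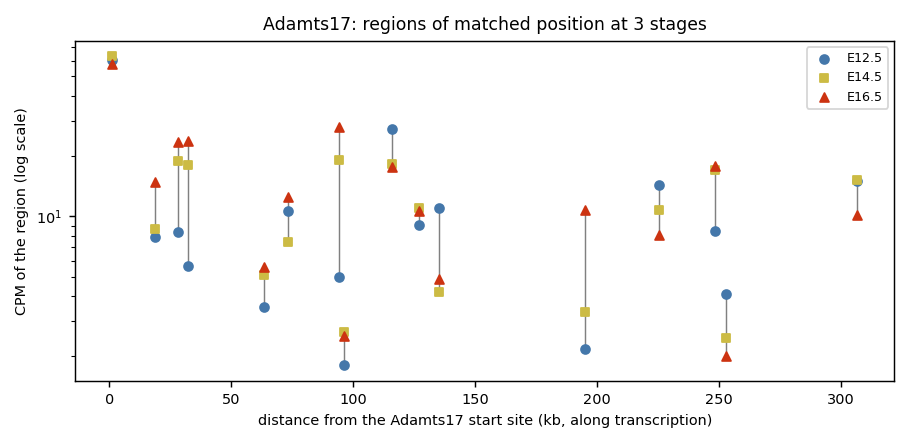
CPM (log axis) of the 16 regions of matched position in Adamts17 at each stage, by distance from the start site in kb. The promoter stays between 57.6 and 63.1 CPM, the region 94103 bp inside the gene goes from 5.01 to 27.9 CPM, and that at 135289 bp goes from 11.1 to 4.88 CPM.

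To see which kinds of nuclei the members were open in, nuclei of each library were gated on loci of marker genes. The top 5% of nuclei by the excess of fragments at a panel of markers were set against nuclei in no gate, and no member entered a panel. Of the E16.5 nuclei at or above the median depth, 348 were gated as chondrogenic, 309 as tenogenic, 329 as fibrogenic and 313 as dermal fibrogenic, with 5184 in no gate. Genes held out of the panels checked the gates: at E16.5 the log2 ratio of gated over other nuclei was 1.999 at Col2a1 and 0.80 at Sox9 (chondrogenic), 1.07 at Kera and 0.57 at Thbs4 (tenogenic), 0.77 at Mfap5 and 0.35 at Cd34 (fibrogenic), and 1.47 at Col7a1 and 0.72 at Twist2 (dermal fibrogenic). At E14.5 the chondrogenic gate had 1.02 at Col2a1 and 0.24 at Sox9, and the dermal fibrogenic gate 1.24 at Col7a1 and 0.39 at Twist2. The tenogenic gene Kera had 0.29 in that chondrogenic gate, above Sox9. In the fibrogenic gate at E16.5 the dermal gene Twist2 had 0.34, close to the value of Cd34. The chondrogenic gene Col2a1 had 0.41 in the tenogenic gate of E16.5. The name of the dermal fibrogenic gate is less certain, since the pericyte gene Pdgfrb had 0.48 in it at E14.5, above Twist2, and 0.55 at E16.5, and Col7a1 also had 1.16 in an osteogenic gate at E14.5. A pericyte gate is not described, since its held-out genes Pdgfrb and Heyl had only 0.15 and 0.23, and the osteogenic gate is not reported further. Gates at E12.5 are not described, and the chondrogenic one there had -0.03 at Col2a1 and 0.02 at Sox9. The tenogenic gate (0.50 at Kera, -0.11 at Thbs4) and fibrogenic gate (0.56 at Mfap5, 0.46 at Cd34) of E14.5 are not described either. A gate is a range of a score and not a cell type.

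Chondrogenic nuclei at E16.5 had 2 of 31 members at least 1.5-fold higher, where 3.49% of all genes were, and 4 lower, where 3.64% were. Adamts3, the procollagen N-proteinase known to act on type II collagen, had 80.04 CPM (73.2 to 87.5) in the gate and 51.2 in other nuclei, a log2 ratio of 0.64 (0.51 to 0.78). Membrane-type Mmp16 had 67.2 and 42.7 CPM, a ratio of 0.66. Adamts5 (43.1 and 70.4 CPM), Adamts15 (57.9 and 94.6), Adamts16 (64.6 and 109) and Adamts19 (61.7 and 100.2) were lower, and the first pair are enzymes that cut aggrecan. At E14.5 the chondrogenic gate had 1 of 30 higher, against 1.63% of genes, and 3 lower, against 1.32%. Mmp2 was the one higher, with 70.1 and 42.2 CPM, and had 98.7 and 69.9 CPM at E16.5. Adamts5 and Adamts16 were lower at this stage as well, at -0.60 and -0.79, together with Adamts4 at -0.91. With the gate widened to the top 10% of nuclei, the chondrogenic counts at E16.5 were 1 higher, against 1.97% of genes, and 0 lower, against 1.38%. Those at E14.5 were 1 higher, against 0.890%, and 1 lower, against 0.485%.

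Dermal fibrogenic nuclei at E16.5 had 2 of 31 members higher, where 2.94% of genes were, and 5 lower, where 5.09% were. Adamts20 had 214 CPM (202 to 226) in the gate and 99.98 in other nuclei, a ratio of 1.095 (1.01 to 1.18). Adamts20 is known from a mouse mutant with a white belt, in which pigment cells do not fill the skin. Adamts18 had 73.2 and 45.0 CPM, a ratio of 0.70. Adamts15 (46.3 and 94.6 CPM), Adamts16, Mmp2 (42.7 and 69.9 CPM), Timp3 (82.2 and 127 CPM) and Mmp28 were lower. At E14.5 this gate had 0 of 30 higher, against 0.270% of genes, and 1 lower, Adamts16, against 0.686%, and Adamts20 had 0.42. The tenogenic gate at E16.5 had 0 of 31 higher, against 0.830%, and 1 lower, Adamts16 at -0.65, against 1.15%. The fibrogenic gate had 1 higher, Adamts19 with 162 and 100.2 CPM, against 0.340%, and 0 lower, against 0.748%. With the top 10% of nuclei, the dermal fibrogenic gate at E16.5 had 3 lower and not 5, against 3.43% of genes, and the tenogenic gate had 0 lower, against 0.610%.

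**Figure D5:**
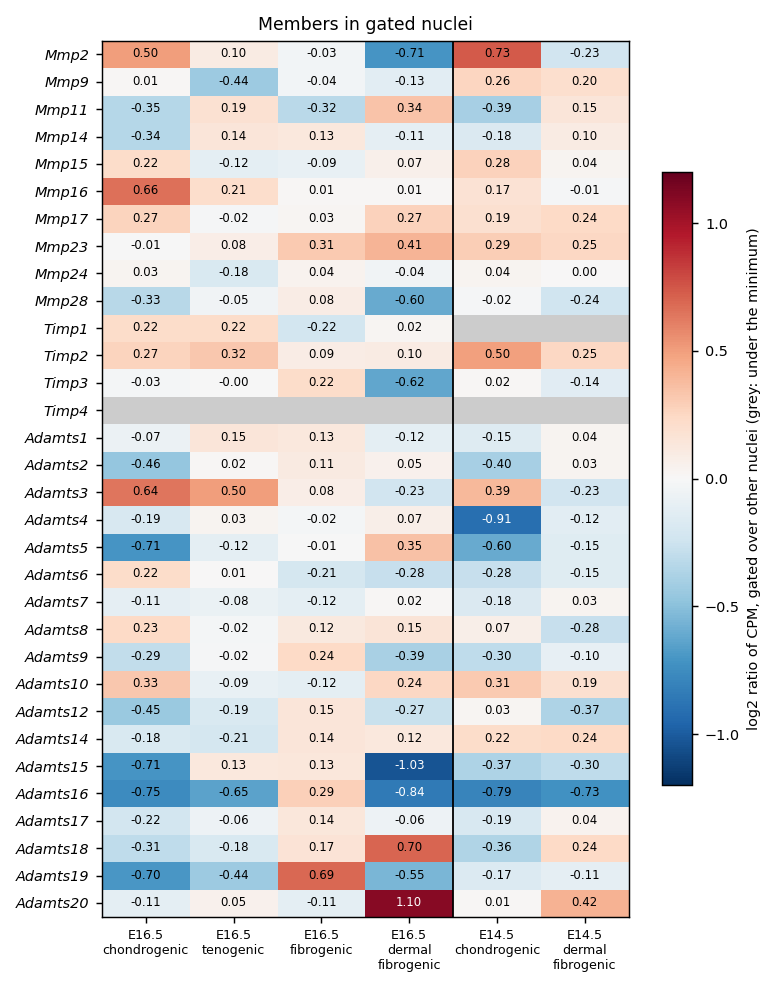
Log2 ratio of CPM in gated over other nuclei for each member, at E16.5 in 4 gates and at E14.5 in 2, with grey for members expected to give fewer than 50 fragments. Adamts20 stands out in dermal fibrogenic nuclei at 1.095, while Adamts15 is lower there at -1.03 and in chondrogenic nuclei at -0.71.

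Single elements were read in the same gates. Those described were chosen for their large ratios after their values had been seen, so they do not stand for the other elements. The Adamts3 intron region chr5:89844134-89844889, printed above, had 20.1 CPM in chondrogenic nuclei at E16.5 and 4.29 in other nuclei, a ratio of 2.23 (1.93 to 2.52). It had 1.85 (1.48 to 2.24) in the E14.5 library, and 1.05 in tenogenic and -1.75 in dermal fibrogenic nuclei of E16.5. In Adamts12 the region chr15:11097905-11099354, which declined with stage in the whole library, had 13.8 CPM in chondrogenic nuclei against 3.18 in others at E16.5, a ratio of 2.12 (1.75 to 2.47), and 1.27 at E14.5. Another intron of that gene, chr15:11210282-11211749, was the reverse, with -1.59 in chondrogenic nuclei at E16.5 and -1.30 at E14.5. The Timp2 element had 54.0 and 29.9 CPM in chondrogenic and other nuclei at E16.5, a ratio of 0.85, and 1.197 at E14.5.

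In Adamts17 different elements stood out in different gates. The element that increased most with stage, chr7:66932674-66935004, had 47.2 CPM in fibrogenic nuclei, 30.3 in tenogenic, 11.4 in chondrogenic and 5.11 in dermal fibrogenic nuclei at E16.5, beside 30.1 in nuclei of no gate. The element chr7:66857631-66859308 had 45.9 CPM in dermal fibrogenic nuclei and 14.2 in nuclei of no gate, a ratio of 1.69 (1.49 to 1.89). The element chr7:67064210-67065682 had 17.8 CPM in chondrogenic and 21.6 in tenogenic nuclei, beside 7.07. The gene sum of Adamts17 was within 1.5-fold of other nuclei in all 4 gates.

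The dermal fibrogenic gate also marked single elements of other members. In Adamts20 the intron region chr15:94302472-94303720 had 16.8 CPM in the gate and 4.12 in other nuclei at E16.5, a ratio of 2.03 (1.68 to 2.36), and 1.52 (0.85 to 2.14) at E14.5. In Adamts18 the intron region chr8:113803739-113805046 had 1.42 at E16.5 and 1.04 at E14.5. In Adamts16 the intron region chr13:70740070-70741721 had 1.37 CPM in the gate from 15 cut sites against 16.2 in other nuclei, a ratio of -3.56 (-4.68 to -2.49). The Adamts9 element had 2.74 and 11.9 CPM there, and the Adamts2 element 7.30 and 15.9. In Adamts5 the exon region chr16:85887156-85888468 had 37.6 and 15.9 CPM, a ratio of 1.24, although the gene was not among those higher in this gate.

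The share of nuclei with a fragment in the promoter peak was compared at 1000 fragments per nucleus, after 1639 nuclei at E12.5 and 72 at E16.5 with fewer had been left out. These were fragments in the called peaks of each library itself. The E14.5 list was the shortest and had the largest part of its counts in promoter peaks. How far this raised the E14.5 shares was not tested. Adamts1 had the highest share among the members, 7.14%, 9.95% and 9.51% in stage order, followed by Adamts9 with 6.88%, 9.92% and 6.95%. Mmp14 had 2.92%, 5.23% and 4.37%, and Mmp2 2.09%, 2.95% and 2.76%. Adamts16 had 0.924%, 0.265% and 0.184%, the lowest of the Adamts genes at each stage. The mesenchymal genes Pdgfra, Prrx1 and Twist1 were also highest at E14.5, with 9.69%, 13.6% and 9.32% in stage order at Pdgfra. Hic1 was lowest there, with 8.49%. Among genes of cells outside the lineage, the endothelial gene Pecam1, whose cells the sort removed, had 0.159% at E12.5 and 0.124% at E16.5, while the endothelial gene Cdh5 had 0.0275% and 0.542% and the epithelial gene Krt5 0.0744% and 0.466%. Krt14, also epithelial, had no called promoter peak at E12.5 and 0.505% at E16.5, and none of these 4 genes had one at E14.5. The share at 3 of the 4 was thus above that of Adamts16 at E16.5, and their part in the results was not tested. Without the common depth the Adamts1 shares were 24.7%, 36.9% and 65.3%, at median depths of 6003.5, 8575 and 26694 cut sites.

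Of the 3 members without a shared peak, Mmp13, the collagenase of hypertrophic cartilage and bone, had no called peak in any library. Mmp3, stromelysin, had 0, 1 and 3 peaks in stage order. The promoter peak of E16.5 (chr9:7445601-7445917) held a count in 148 of 14048 nuclei, or 1.05% (exact binomial interval 0.891% to 1.24%), and an exon peak (chr9:7453051-7453795) in 4.76%. Mmp19 had an exon peak at E12.5, with a count in 0.482% of nuclei, then none, and in the last library a promoter peak (chr10:128790421-128791326) with a count in 5.14% (4.78% to 5.52%) and 1 intron peak. These shares are not thinned to a common depth, and the E16.5 library was the deepest.

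RefSeq promoter windows on GRCm38.p6, from 250 bases before to 50 after the start, were matched for 21 of the 35 members. The GC box, GGGCGG on either strand, was in 16 of these 21 windows (76.2%) and in 35.9% of 32609 windows of all genes. The median GC content was 66.0% for members and 53.0% for all. TGANTCA was in 2 members, Mmp3 and Mmp13, and in 7.85% of all windows. AACCACA was in 1 member, Mmp13, and in 5.29% of all. The promoter of Mmp13, without a called peak, and that of Adamts1, the one open in most nuclei, are set side by side, with capitals for matches to these 3 motifs.
Mmp13 promoter window, chr9:7272264-7272563, plus strand: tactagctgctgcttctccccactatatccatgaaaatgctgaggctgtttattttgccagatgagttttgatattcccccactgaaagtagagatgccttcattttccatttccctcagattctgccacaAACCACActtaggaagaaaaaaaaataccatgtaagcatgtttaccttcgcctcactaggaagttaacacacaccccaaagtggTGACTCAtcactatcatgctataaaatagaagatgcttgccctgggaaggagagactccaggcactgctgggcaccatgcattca
Adamts1 promoter window, chr16:85803064-85803363, minus strand: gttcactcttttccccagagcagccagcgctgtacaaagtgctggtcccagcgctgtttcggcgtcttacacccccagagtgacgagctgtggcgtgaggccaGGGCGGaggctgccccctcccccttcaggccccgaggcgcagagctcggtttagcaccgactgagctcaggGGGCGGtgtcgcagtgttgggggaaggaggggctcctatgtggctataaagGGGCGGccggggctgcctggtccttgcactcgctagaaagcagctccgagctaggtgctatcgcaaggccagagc

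The Mmp13 window has 43.7% GC and 0 GC boxes, and that of Adamts1 has 64.7% GC and 3 GC boxes. Among the central 300 bases of the 88 autosomal regions of matched position, TGANTCA was found in 4 of the 22 that were higher at E16.5 than at E12.5, in 1 of the 15 that were lower and in 3 of the 51 between. Over all 42120 regions it was in 13.9% of those higher, 9.74% of those lower and 9.26% of the whole. GGAATG was in 6 of the 22, 1 of the 15 and 10 of the 51, beside 18.4% of all regions. Over all regions it was in 21.6% of those higher, 23.1% of those lower and 21.4% of those away from promoters. AACCACA and ACAATGG were in 2 and 3 of the 88, beside 6.34% and 2.95% of all regions, and the NFI palindrome was in 0, beside 0.109%.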

How the data were processed

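The authors deposited, for each library, a matrix of raw counts of Tn5 cut sites per peak and nucleus, with the peak list called in that library alone. Per the labels these came from bcl2fastq and Cell Ranger ATAC 1.1.0 on mm10, while the matrix headers give 1.0.1 for E12.5 and E14.5 and 1.2.0 for E16.5. The peak lists carry no scores, and how many embryos were pooled for each library is not given in the sources used here. All called nuclei were kept and no doublet caller was run.

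Peaks of the 3 lists were merged into regions and linked to the gene body plus 2000 bp upstream (GENCODE vM21 basic). A promoter peak overlapped the window from 1000 bp before to 100 bp after a start. An intron peak lay in the gene body and touched no promoter window and no exon. Class was set for each called peak in its own library. Members' counts in regions called in all libraries were scaled to CPM, counts per 1000000 counts in autosomal shared regions. Intervals are 95% exact Poisson or exact binomial (Clopper-Pearson), on fragment equivalents (cut sites divided by 2), and cover counting error only. With 1 library per stage no test between stages was possible, and 1.5-fold is a mark of size. Regions of matched position had 1 peak per library overlapping by at least 50%.

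Gated nuclei were the top 5% of nuclei at or above the median depth by fragments in excess of expectation at marker loci, members being measured where at least 50 fragments were expected. Shares of nuclei were the expected shares at 1000 fragments in the called peaks of the same library. The members and lists were chosen with earlier results of these data known. Every member is accounted for, with values in every library by rule for the Timp genes and for the 3 largest increases and 3 largest decreases among Mmp and among Adamts genes, and for the matched region with the largest increase and decrease of each family. Other elements and sequences were chosen after their values were seen. Alternatives changed the peaks counted, the scaling, the nuclei kept, the width of the gates and the reading per kb. Calculations were tested on simulated data. Python 3.11.15, numpy 2.4.6, pandas 2.3.3 and scipy 1.17.1 were used.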

Additional observations from a re-analysis of the deposited data

How the results depend on the processing

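No paired analysis was possible because each stage had 1 library. Ratios are log2, and steps are named by their stages. The cause of a shift was not tested beyond what each reading leaves in or out. The reading per kb of called width changed the sign of the most gene sums, 11, 20 and 10 of 32 (E12.5 to E14.5, E14.5 to E16.5, E12.5 to E16.5). Peaks of matched position changed 4, 8 and 6 of 28. Values from nuclei, from gates and for single elements rest on few fragments, so counting error limits them. Without the deepest 5% of nuclei, each family median stayed within its counting interval and each count of members within 1.5 times its value.

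With all peaks of each library, the Adamts median was 0.044 (E12.5 to E14.5), 0.29 (E14.5 to E16.5) and 0.34 (E12.5 to E16.5). The Mmp median was 0.019, 0.41 and 0.28, and the Timp median 0.48 from E14.5 to E16.5. All genes had medians of 0.087, -0.053 and 0.056 in the same order. Members past 1.5-fold were 0 higher (5.65% of all genes) and 3 lower (12.6%) at the first step, 8 higher (13.9%) and 0 lower (2.90%) at the second, and 1 lower (7.74%) from E12.5 to E16.5. Of the 8, 1 was Mmp3, which had no value in shared peaks. With the binarised matrix the Adamts median from E14.5 to E16.5 was 0.053, and from E12.5 to E16.5 4 members were higher (6.15%) and 1 lower (6.71%).

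Per kb of called width, which moved the median of all genes by 0.35, -0.50 and -0.19, the Adamts medians were 0.47, -0.66 and -0.14. The Mmp medians were 0.51 and -0.67 and the Timp medians 0.56 and -0.67 at the first and second step. Members past 1.5-fold were 11 higher at the first step (37.5% of all genes), 0 higher (0.252%) and 18 lower (64.8%) at the second, and 0 higher (1.61%) and 1 lower (11.7%) from E12.5 to E16.5, so all 9 earlier calls of that comparison were lost. Among members past 1.5-fold in shared peaks, signs turned for Adamts1 (-1.07), Adamts15 (-0.24) and Mmp2 (-0.12) from E12.5 to E16.5, and for Mmp2 (-0.32), Mmp24 (-0.77) and Mmp28 (-0.26) from E14.5 to E16.5.

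In peaks of matched position the Adamts medians were 0.26, -0.29 and -0.0046, beside 0.21, -0.26 and -0.033 for all genes. The Mmp median was -0.28 from E14.5 to E16.5 and -0.33 from E12.5 to E16.5, and the Timp median 0.022 from E14.5 to E16.5. Adamts intron peaks had 0.36, -0.39 and 0.096, Adamts promoter peaks -0.37 from E14.5 to E16.5, and Timp intron peaks 1.76 from E12.5 to E16.5. From E14.5 to E16.5 the median of all matched promoter regions of at least 2 CPM was -0.30. That of all such regions away from promoters was 0.03. Members past 1.5-fold were 1 lower (4.60% of all genes) at the first step, 2 higher (2.65%) and 4 lower (8.12%) at the second, and 2 higher (4.41%) and 1 lower (8.97%) from E12.5 to E16.5. Mmp24 turned to -0.88 from E14.5 to E16.5 and -0.49 from E12.5 to E16.5.

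Counts over whole merged regions, a reading chosen after seeing the data, gave an Adamts median of 0.17 from E12.5 to E16.5, an Mmp median of -0.022 from E14.5 to E16.5, 4 members higher (6.16% of all genes) from E12.5 to E16.5 and 1 (5.66%) from E14.5 to E16.5, and -0.13 for Mmp24 at that step. With peaks open in at least 1% of nuclei the Adamts median from E12.5 to E16.5 was 0.32 and 3 members were higher (7.64%) at the first step. Scaled by the median ratio, which moved the median of all genes by -0.16 and 0.16 at the first and second step, the Adamts medians were -0.036 and 0.27, the Mmp medians -0.044 and 0.27, the Timp median 0.47 at the second, with 2 members lower (11.0%) at the first and 0 (2.07%) at the second.

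Scaled to the counts in intron peaks, the Adamts intron medians were 0.20 and -0.093 at the first and second step. Scaled to the counts in promoter peaks, the promoter medians were 0.064 and 0.014 for Adamts, -0.0075 for Mmp at the first and -0.15 for Timp at the second. With the top 10% of nuclei, chondrogenic nuclei at E16.5 had 1 member higher and 0 lower, those at E14.5 had 1 lower, dermal fibrogenic nuclei at E16.5 had 3 lower and tenogenic nuclei 0 lower. With the top 2.5%, chondrogenic nuclei at E16.5 had 7 lower (7.23% of all genes) and tenogenic nuclei 2 (2.58%).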
